A study of Homo sapiens with 6 samples.

Results

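The cytoplasmic actin genes ACTB and ACTG1 and the tubulin genes TUBA1A, TUBA1B, TUBA1C, TUBB, TUBB3, TUBB4B and TUBB6 were examined in lung adenocarcinoma cells that overexpressed the RNA-binding protein SAM68, the product of KHDRBS1. The 9 genes were selected by name, and their splicing events were chosen by measured values: an event was kept if its mean over the 6 libraries was at least 10 junction reads, that is, reads crossing a splice junction or an intron boundary. Of 78336 events listed for all genes, 38 belonged to the 9 genes, 34 reached the minimum and 32 were tested, out of 66403 tested in all. NCI-H1975 cells (spelled NCl-H1975 in the labels), 1 human lung adenocarcinoma line, received either a PCDNA3.1-SAM68 plasmid (SAM68 group) or the PCDNA3.1 plasmid without it (control group). Both groups received 2 µg of plasmid per well by lipofectamine 2000 and were collected after 48 h, with 3 libraries in each group that the study calls biological replicates.

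Actin and tubulin are the subunits of microfilaments and microtubules, the polymers that give a cell its shape, carry transport and, for microtubules, form the mitotic spindle. ACTB and ACTG1 encode the β and γ cytoplasmic actins, which differ by few amino acids. TUBA1A, TUBA1B and TUBA1C encode α-tubulins, and TUBB, TUBB3, TUBB4B and TUBB6 encode β-tubulins, which pair with α-tubulin to form the heterodimer that polymerizes. TUBB3 is known as the neuronal class of β-tubulin, and it is also found in many carcinomas. SAM68 binds RNA rich in A and U and can change the choice of splice sites. Tubulin mRNAs are also regulated by the amount of free tubulin in the cell, and actin genes respond to the amount of free actin.

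The copies of these genes are alike in sequence, and only bases that differ can tell their junction reads apart. Exon 5 of the actins, shown because the last measured ACTG1 junction joins it to exon 4, is coding in both genes and lies at chr7:5528004-5528185 (ACTB) and chr17:81510927-81511108 (ACTG1), both on the minus strand of GRCh38. Capitals mark the bases that differ between them, read 5′ to 3′ along the transcript.
ACTB exon 5: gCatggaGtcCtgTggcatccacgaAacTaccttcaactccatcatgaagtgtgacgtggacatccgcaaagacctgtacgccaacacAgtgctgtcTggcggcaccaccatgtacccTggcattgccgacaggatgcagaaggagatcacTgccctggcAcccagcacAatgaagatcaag
ACTG1 exon 5: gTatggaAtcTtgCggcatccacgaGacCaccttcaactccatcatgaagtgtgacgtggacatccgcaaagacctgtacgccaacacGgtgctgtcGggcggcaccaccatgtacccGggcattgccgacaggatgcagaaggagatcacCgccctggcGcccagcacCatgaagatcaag
These 182 bases differed at 12 positions (93.4% identity). Exon 2, which holds the start of the coding sequence, had 81.4% identity between the actins, exon 3 had 92.5% and exon 4 had 91.6%.

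Among the β-tubulins, exon 3 is shown for TUBB6, in which its skipping was the alternative form read most often, and for TUBB4B, in which the same exon was measured. It is coding, 111 bases long, and lies at chr18:12310943-12311053 (TUBB6) and chr9:137241911-137242021 (TUBB4B), both on the plus strand. Capitals mark bases that differ among TUBB, TUBB3, TUBB4B and TUBB6.
TUBB6 exon 3: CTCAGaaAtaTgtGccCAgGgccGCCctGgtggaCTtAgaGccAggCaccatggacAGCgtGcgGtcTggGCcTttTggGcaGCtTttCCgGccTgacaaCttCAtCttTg
TUBB4B exon 3: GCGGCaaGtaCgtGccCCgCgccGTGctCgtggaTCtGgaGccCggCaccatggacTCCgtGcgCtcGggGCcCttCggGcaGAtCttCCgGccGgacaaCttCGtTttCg
The 2 exons had 74.8% identity.

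SAM68 itself was checked first. KHDRBS1 rose from 102 ± 2.76 to 403 ± 7.16 RPM (SD, n = 3 per group), a 3.94-fold difference on the log2(value + 0.5) scale. RPM stands for junction reads per 1000000 junction reads of the library's skipped-exon (SE) table, whose total lay between 16951876 and 19737729. A gene was represented by its event with the most reads among events whose lists could be divided into counts, and 10152 genes were tested with limma. Among the marker genes of an epithelial line, 3 of 8 had a measured event: KRT18 (154 in control and 168 in SAM68 libraries), KRT8 (108 ± 50.9 and 76.2 ± 3.14, with 166 in control library 1 and 80.9 and 75.9 in the other control libraries) and KRT7 (1.18 and 0.567). Of 9 markers of blood, endothelial and stromal cells 1 had any event, and its reads summed to at most 0.458 RPM in a library. A gene without a listed event cannot be measured in these tables.

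The junction reads of ACTG1 and TUBA1B rose in the SAM68 libraries, and those of the other 5 measured genes did not pass the test. ACTG1 had a 1.28-fold and TUBA1B a 1.16-fold higher read count at the event that represented it. Both calls had an adjusted p under 0.05, as had 46 of all 10152 genes (0.453%), of which 15 were higher (0.148%) and 31 lower (0.305%) with SAM68. In the gene set examined, 2 of 7 were called, both higher. The same 2 genes had SAM68 libraries that did not overlap with the control libraries, which held for 16.7% of all genes tested. Bulk reads cannot tell more RNA per cell from more cells that express a gene.

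ACTG1 encodes γ-actin. At the junction that removes its intron 1 (chr17:81512232-81512781, exons 1 and 2, minus strand), the control libraries held 485, 521 and 484 RPM. The SAM68 libraries held 638, 601 and 669. All 3 SAM68 libraries lay above all control libraries. The means were 497 ± 21.4 and 636 ± 34.1 (SD, n = 3), and the log2 fold change was 0.36 (SE 0.0436, 95% interval 0.27 to 0.45, limma adjusted p = 2.96e-05).

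The other junctions of ACTG1 gave smaller values. At the intron 3 junction the control libraries held 489, 459 and 471 RPM and the SAM68 libraries 477, 501 and 501, so that the groups overlapped. Means there were 473 ± 15.3 and 493 ± 13.97, a 1.04-fold difference (limma adjusted p = 0.61 over all tested events). At the intron 4 junction the values were 342, 334 and 316 in control and 361, 327 and 347 in SAM68 libraries. That is 1.04-fold as well (adjusted p = 0.667). When every event was tested on its own reads, 285 of 66403 events were called (0.429%), and the intron 1 event of ACTG1 was among them (adjusted p = 2.5e-05).

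The ratio of intron 1 to intron 3 reads was computed inside each library. It was 0.991, 1.14 and 1.03 in control libraries and 1.34, 1.20 and 1.33 in SAM68 libraries. The ratio of intron 1 to intron 4 reads was 1.502 ± 0.0766 in control and 1.84 ± 0.0818 in SAM68 libraries (n = 3). Neither ratio overlapped between the groups. The exact permutation test gave p = 0.1 for each, the smallest that 3 against 3 libraries allow. After adjustment over the 7 ratios computed inside single genes it was 0.175. The ratio of intron 3 to intron 4 reads was 1.43 ± 0.0579 and 1.43 ± 0.107. With the reads of all divided events of ACTG1 summed, the log2 fold change was 0.15 (adjusted p = 0.0766), and the gene no longer passed. The acceptors of intron 2 form a further event whose counts could be read only by assuming counts of equal digit number in a list. On that reading it was 1.25-fold higher in the SAM68 libraries, without overlap (934 ± 26.7 and 1167 ± 48.6 RPM, exact permutation p = 0.1, the smallest possible). It had more reads than the intron 1 event, and with it in place of that event the log2 fold change of the gene was 0.32 (limma adjusted p = 1.31e-05). ACTG1 thus passed the test at intron 1, was higher at intron 2 on that reading, and did not pass at introns 3 and 4. Whether the division of reads between the actin copies differed among libraries was not tested.

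**Figure D1:**
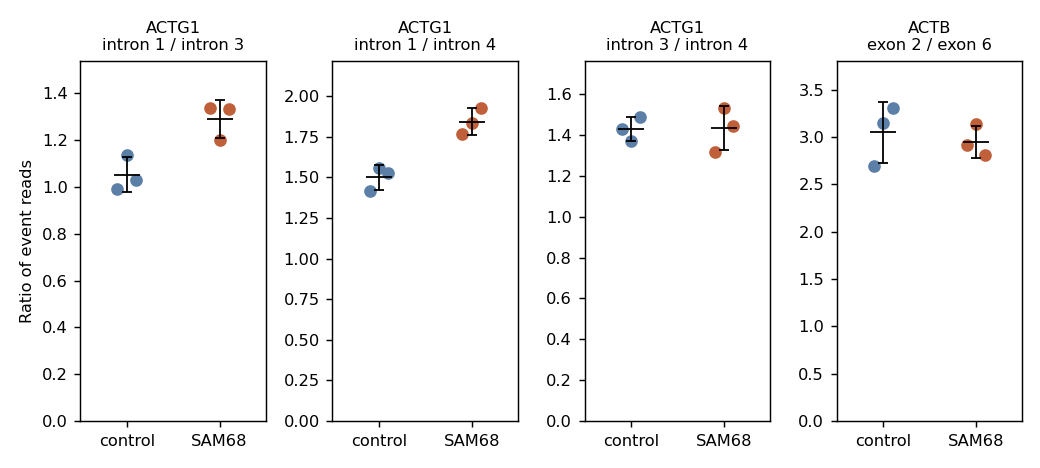
Ratios of junction reads inside single genes, by library. Points are libraries, black bars the mean and SD of 3 libraries, and the vertical axes start at 0. Both ratios with the ACTG1 intron 1 reads are higher in all 3 SAM68 libraries, whereas the ACTG1 intron 3 to intron 4 ratio and the ACTB exon 2 to exon 6 ratio overlap between the groups.

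ACTB encodes β-actin and is often used as a reference gene. The event at its exon 2 (chr7:5529535-5529663, minus strand), which holds the start codon, sums the reads of both adjoining introns. The control libraries held 1299.6, 1347 and 1426 RPM and the SAM68 libraries 1468, 1503 and 1405. The lowest SAM68 library lay under the highest control library. Means were 1358 ± 64.0 and 1459 ± 49.8, a log2 fold change of 0.10 (95% interval 0.03 to 0.18), and the gene did not pass the adjustment over all genes (adjusted p = 0.232). Its 5 tested events had folds from 1.06 to 1.11, and none passed the test over all events. The intron 1 acceptors alone had 552 ± 39.8 and 604 ± 31.2 RPM, and their groups overlapped. Intron 2 alone held 789, 796 and 836 RPM in control and 849, 880 and 837 in SAM68 libraries, which did not overlap (807 ± 25.7 and 855 ± 21.9, exact permutation p = 0.1, the smallest possible, limma adjusted p = 0.377). The acceptors of intron 3, read with counts of equal digit number, gave 362 ± 9.63 and 427 ± 15.8, a 1.18-fold difference without overlap (exact permutation p = 0.1).

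The actins were also set against each other. Per length, the ratio of ACTB to ACTG1 coverage at the events that represented them was 1.35, 1.30 and 1.49 in controls, and it was 1.16, 1.26 and 1.06 with SAM68. These values did not overlap (1.38 ± 0.0955 and 1.16 ± 0.102, exact permutation p = 0.1, the smallest possible). The p was not adjusted for the other ratios computed between genes, whose groups overlapped (exact permutation p from 0.2 to 0.5). The ratio uses the intron 1 reads of ACTG1 described above.

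TUBA1B encodes the α-tubulin with the most junction reads here. Its 3 events are all exons of 156, 226 and 284 bases inside intron 1 that share a donor and 1 skipping junction, from exon 1 to exon 2, so that they are a single measurement of that junction. The control libraries held 449, 461 and 487 RPM and the SAM68 libraries 554, 516 and 551. No SAM68 library was as low as any control library. The means were 466 ± 19.3 and 540 ± 21.1, and the log2 fold change was 0.21 (SE 0.0425, 95% interval 0.13 to 0.30, limma adjusted p = 0.0217). The call was lost without control library 1 (adjusted p = 0.219), without control library 2 (0.153) and without SAM68 library 1 (0.122), where library numbers are positions in the deposited lists.

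TUBA1A, another α-tubulin gene, was read less often than TUBA1B, with a TUBA1B to TUBA1A coverage ratio of 10.4 ± 0.216 in control libraries. At the matching intron 1 junction the control libraries held 42.8, 43.8 and 48.0 RPM. The SAM68 libraries held 32.2, 56.1 and 48.0. The SAM68 libraries thus spread below and above the control libraries (44.9 ± 2.78 and 45.4 ± 12.2, log2 fold change −0.02, 95% interval −0.26 to 0.22, adjusted p = 0.964). At the next junction of TUBA1A, which removes intron 2, the values were 40.5, 41.0 and 40.7 in control and 42.6, 37.7 and 39.2 in SAM68 libraries.

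At the intron 1 junctions SAM68 library 1 had the lowest TUBA1A value and the highest TUBA1B value. At intron 2 of TUBA1A the same library had the highest value (42.6 RPM). The ratio of TUBA1B to TUBA1A coverage per length, at intron 1, was 17.2 in that library and between 9.18 and 11.5 in the other 5. The reads of both genes summed to 492, 505 and 535 RPM in control and 586, 572 and 599 in SAM68 libraries. The sum was 1.147-fold higher, without overlap (511 ± 22.02 and 586 ± 13.4, exact permutation p = 0.1, the smallest possible). TUBA1B supplied 466 and 540 of these means, so that the sum largely repeats the TUBA1B difference. The assignment of reads between the α-tubulin copies was not tested. TUBA1C, which overlaps TUBA1A in the annotation on the opposite strand, had 1 listed event with a mean of 1.0 read, under the minimum.

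The β-tubulins did not pass the test. TUBB4B, a widely expressed β-tubulin, had 332, 329 and 301 RPM at exon 2 in control libraries and 350.0, 335 and 324 in SAM68 libraries (log2 fold change 0.07, 95% interval −0.03 to 0.16, adjusted p = 0.591). TUBB6 had 168, 161 and 166 in control and 164, 163 and 170.0 in SAM68 libraries (log2 fold change 0.00, 95% interval −0.10 to 0.11, adjusted p = 0.979). TUBB3 had 94.8, 90.9 and 90.6 in control and 90.2, 88.01 and 92.1 in SAM68 libraries (log2 fold change −0.03, 95% interval −0.15 to 0.09, adjusted p = 0.866). At these representing events the groups overlapped in each gene. TUBB, a major β-tubulin gene, had 0 listed events and was not analysed here.

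Of the 18 tested events of these 3 genes, 4 had groups that did not overlap, 3 of them lower and 1 higher with SAM68, whereas 16.6% of all events tested did not overlap. Exon 3 of TUBB4B held 131, 135 and 129 RPM in control and 128, 129 and 115 in SAM68 libraries. The event of the 246-base intronic exon of TUBB3 held 56.3, 54.8 and 53.4 in control and 49.9, 53.1 and 48.9 in SAM68 libraries. An event of exon 3 of TUBB6 with a less used upstream flank held 43.2, 40.2 and 41.7 in control and 36.5, 35.9 and 38.1 in SAM68 libraries (0.885-fold). The event that was higher, at exon 2 of TUBB6, was 1.03-fold. The exact permutation p was 0.1 in each, the smallest possible, and none passed the limma test over all events (adjusted p from 0.343 to 0.85).

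Within TUBB4B and TUBB6 the events nearer the start of the gene were set against those further on. The ratio of exon 2 to exon 3 event reads of TUBB4B was 2.44 ± 0.105 in control and 2.72 ± 0.105 in SAM68 libraries. In TUBB6 it was 1.07 ± 0.0128 and 1.11 ± 0.0047. Neither ratio overlapped between groups (exact permutation p = 0.1 each, adjusted 0.175 over the 7 ratios). The corresponding ratio in ACTB, exon 2 to exon 6, was 3.05 ± 0.321 and 2.95 ± 0.168 and overlapped.

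**Figure D2:**
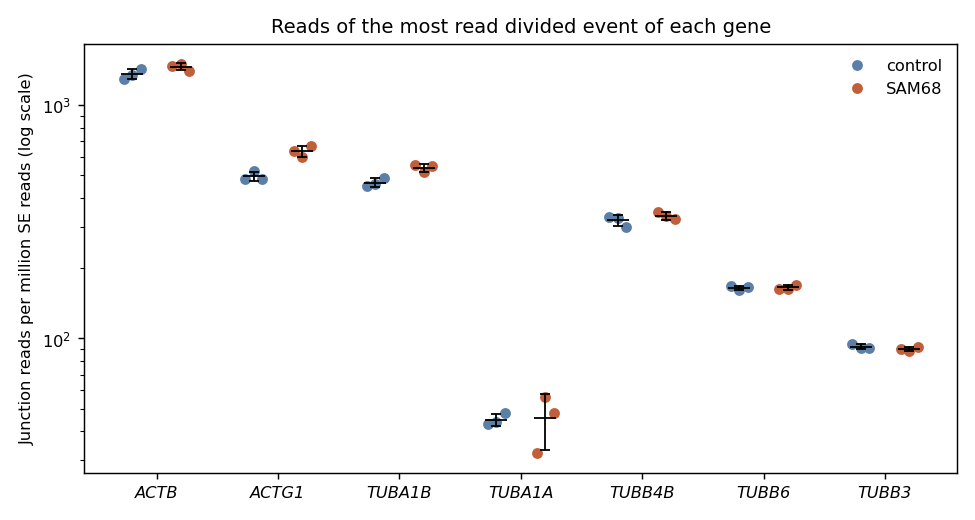
Junction reads in RPM at the most read divided event of each of the 7 measured genes, on a log axis. Points are libraries and black bars the mean and SD of 3 libraries. The groups separate in ACTG1 and TUBA1B, and TUBA1A spreads from 32.2 to 56.1 in the SAM68 libraries.

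**Figure D3:**
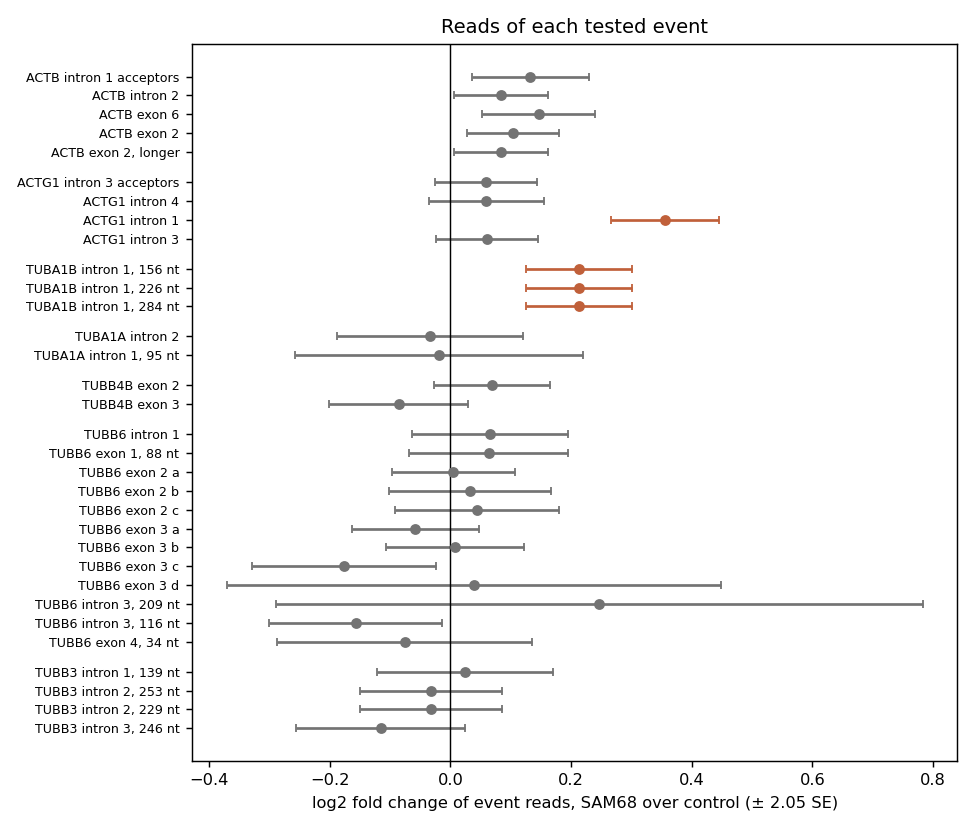
Log2 fold change, SAM68 over control, of the reads of each of the 32 tested events, with 95% intervals from limma. Labels give the exon or intron of the event, letters mark events that share an exon but have other flanks, and coloured points passed an adjusted p of 0.05. The coloured events are intron 1 of ACTG1 and the 3 events of TUBA1B that share a junction.

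The genes were ordered by level at the event that represented each, as coverage per 100 bases, scaled as RPM, in control libraries. The order was ACTB (526), ACTG1 (382), TUBA1B (358), TUBB4B (135), TUBB3 (70.7), TUBB6 (69.4) and TUBA1A (34.5). The values of ACTG1 and TUBA1B overlapped among control libraries, as did those of TUBB3 and TUBB6. All other neighbours in this order were separated at these events. The order of the actins differed at another event. At intron 3, in RPM not divided by length, ACTB held 362 ± 9.63 in control libraries, with counts of equal digit number assumed. ACTG1 held 473 ± 15.3 there. Coverage of the representing event placed ACTB at rank 31 of the 10152 genes and TUBA1A at rank 624.

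Splicing of these genes was nearly constant. Percent spliced in (PSI) is the share of the inclusion form after division of each form's reads by its effective length. A call needed an adjusted p below 0.05 and a PSI difference of 10 points or more, which no event of the 9 genes reached, against 17 of all 66403 events (0.0256%). Without the limit on the difference none was called either, against 59 of all events (0.0889%). The quasi-binomial test gave an unadjusted p under 0.05 for 0 of the 32 events and a lowest adjusted p of 0.764. The likelihood ratio test on pooled counts has no term for the spread between libraries. It had 3 of the 32 events past an adjusted p of 0.05 without the limit, beside 4141 of all events (6.24%).

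In 29 of 32 events the major form made up over 99% of both groups, and in all 32 over 90%. The median absolute PSI difference was 0.0335 points in these events and 1.24 points over all events tested. In 30 of 32 the difference was under 1 point. The 32 events were 25 skipped exons, 5 retained introns and 2 alternative 3′ splice sites. None had PSI values that separated the groups, and the share over all tested events is not given here. Many of these events had 0 reads of the rarer form in several libraries, and such tied values can hardly separate.

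**Figure D4:**
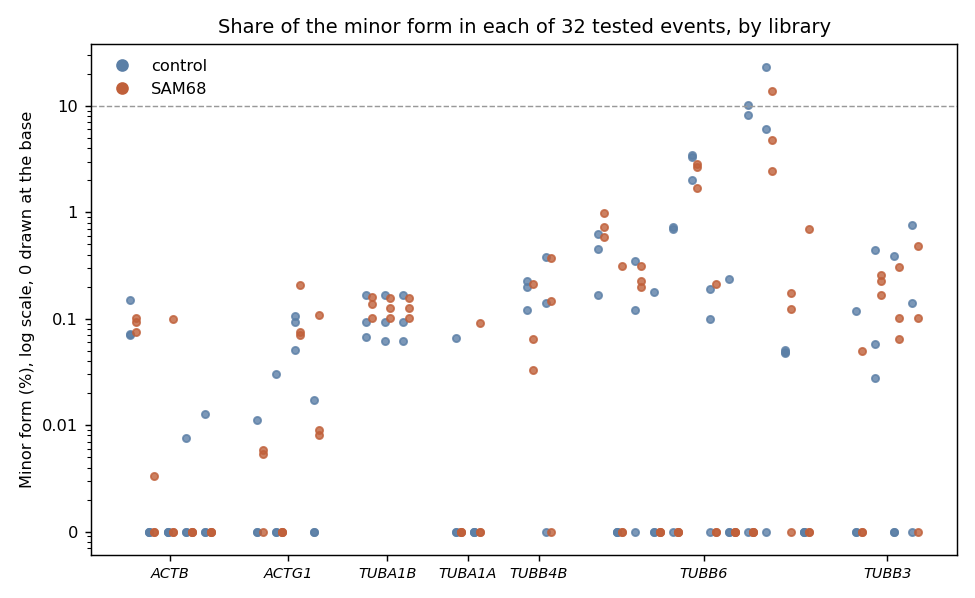
Share of the minor form in each library for the 32 tested events, grouped by gene, on a log axis with 0 drawn at the base. Points are libraries, and the dashed line marks 10%. Values over 10% occur only in TUBB6, in events with a mean of 73.2 and 28.5 reads.

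The actins were spliced with few exceptions. Exon 2 of ACTB was skipped by 0, 1 and 0 reads in control and by none in SAM68 libraries, against 23543 to 28977 inclusion reads. A count of 0 is limited by sampling: with 0 reads observed, the upper 95% limit on the expected count is about 3 reads. Intron 2 of ACTB was retained in 0 reads of control and 1 read of SAM68 libraries. The largest PSI difference among the tested ACTB events, −0.0328 points, was at the exon 6 event. Its exon was skipped by 0 reads in control and by 0, 4 and 0 reads in SAM68 libraries. The PSI of an acceptor 70 bases ahead of exon 2 was 0.0974% ± 0.046 in control and 0.0896% ± 0.0136 in SAM68 libraries.

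Intron 1 of ACTG1, at the junction with the rise, had a PSI of the retained form, per length, of 0.0832% ± 0.0284 in control and 0.118% ± 0.0772 in SAM68 libraries (n = 3, adjusted p = 0.833). The retained-form reads were 9, 19 and 19 in control and 19, 42 and 16 in SAM68 libraries. An exon of 41 bases inside intron 3 of ACTG1 (chr17:81511763-81511803), not part of its main transcript, had 2, 0 and 0 reads in control and 1, 12 and 1 in SAM68 libraries. The 12 reads of SAM68 library 2 joined this exon to exon 4, and 0 reads of that library joined exon 3 to it. They thus do not show both junctions of the exon. The PSI of the exon was 0.0058% ± 0.00997 and 0.0417% ± 0.0574. This event was 1 of the 3 past the pooled likelihood ratio test. Of 11 actin events with reads of a rarer form, 2 of them left out of the tests because their lists could not be divided, SAM68 library 2 had the most such reads in 5.

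The α-tubulin introns held few alternative exons. The 156-base exon in intron 1 of TUBA1B (chr12:49130119-49130274) was included in 11, 30 and 17 reads of control and 35, 24 and 19 of SAM68 libraries. Its PSI was 0.109% ± 0.0509 and 0.133% ± 0.0296. The 95-base exon in intron 1 of TUBA1A had no read in the control libraries and 1 read in the SAM68 libraries, and intron 2 of that gene was retained in 1 and 0 reads.

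TUBB6 held the most variable events. Exon 3, shown earlier, keeps the reading frame when skipped since 111 is divisible by 3. In the event with its most used flanks it was skipped by 53, 56 and 32 reads in control and by 45, 36 and 24 in SAM68 libraries. Its PSI was 97.1% ± 0.8 and 97.6% ± 0.601 (difference 0.553 points, 95% interval −1.05 to 2.16). In an event with other flanking exons on both sides and a mean of 73.2 reads, the control libraries had 0, 4 and 4 skipping reads and the SAM68 libraries none. The junction of these reads leaves out exon 2 as well as exon 3, so that they do not show skipping of exon 3 alone. That gave the largest difference of the set, 93.8% ± 5.42 and 100%, or 6.15 points (95% interval −2.53 to 14.8), with an adjusted p of 0.764. In the event that shares only its downstream flank, with the more used upstream one and a mean of 1827 reads, the PSI was 99.9% in both groups (difference 0.0258 points, 95% interval −0.224 to 0.276).

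Exon 2 of TUBB6, with 109 bases, does not keep the frame. Of its 3 tested events, the most read one had it included in 99.8% of both groups. The others gave 99.9% and 99.5% in control and 100% in SAM68 libraries, and the skipping reads of the second, 0, 4 and 4 in control, are the same reads as in the exon 3 event with a mean of 73.2 reads. Of the 3 events past the pooled likelihood ratio test, 2 thus rest on this 1 junction. The PSI of retained intron 1 of TUBB6 was 0.415% ± 0.232 in control and 0.764% ± 0.195 in SAM68 libraries, from 4, 16 and 11 and from 27, 16 and 14 reads (adjusted p = 0.829). An exon of 209 bases in intron 3 (chr18:12320536-12320744) was included in 0, 3 and 12 reads of control and 4, 1 and 7 of SAM68 libraries. At a mean of 28.5 reads it was the tested event nearest the minimum, and the 4 events under the minimum had means from 1.0 to 5.83 reads.

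In TUBB4B exons 2 and 3 were each included in 99.8% to 99.9% of both groups. In TUBB3 the 4 tested exons, of 139, 253, 229 and 246 bases, lie in introns and were skipped nearly always: their mean PSI lay between 0.0165% and 0.3%. The 246-base exon had the largest difference in that gene, from 0, 3 and 15 reads in control and 2, 0 and 8 in SAM68 libraries. Control library 3 had the most reads of the 253-base exon (15), the 229-base exon (13) and the 246-base exon (15). The 253-base and 229-base exons share a donor and a skipping junction, so that part of their reads are the same.

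The letters TAAA or TTAA, cores of sites bound by SAM68 in RNA as UAAA and UUAA, were sought on the transcript strand in up to 100 intron bases on either side of the skipped exons. These motifs may overlap, as in TTAAA. They occurred beside 11 of 20 distinct exons of these genes (55%) and beside 27468 of 38685 tested exons of all genes (71.0%). Exon 3 of TUBB6 had 4 matches, and exon 2 of ACTB, TUBB4B and TUBB6 had none.

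Genes that act with actin and tubulin were compared as lists. Of 7 measured other actin and tubulin genes, none was called, and the median log2 fold change was 0.05, beside −0.03 over all genes. Among 20 entries for folding (subunits of the CCT chaperonin, prefoldin and tubulin cofactors, with TBCE under 2 identifiers, and also PDCD5 and TTC5), 1 was lower and none higher. The one was CCT6A, a CCT subunit, with 231, 216 and 224 RPM in control and 194, 195 and 184 in SAM68 libraries. It fell by 0.23 on the log2 scale (adjusted p = 0.0247), and its groups did not overlap, which held for 16.7% of all genes tested. With all events of the gene summed it had a log2 fold change of −0.10 (adjusted p = 0.225), and the call was lost. It was also lost with TMM scaling (adjusted p = 0.0857), with median-of-ratios scaling (0.0838), with no minimum of reads (0.0508) and without any of control library 1 (0.229), 2 (0.118) or 3 (0.0909) or SAM68 library 1 (0.105). The subunits TCP1, CCT2, CCT3, CCT4 and CCT5 had log2 fold changes between 0.05 and 0.14, and CCT7 and CCT8 of −0.02 and −0.12, none past the test. The groups of TCP1, CCT2, CCT3 and CCT5 did not overlap either, with the SAM68 libraries higher. The median of the folding list was 0.06.

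None of 20 genes of actin assembly was called (median −0.04). PFN1, which encodes profilin and binds actin monomers, had 1092 and 1100.2 RPM in control and SAM68 libraries. None of 21 genes of microtubule assembly was called (median −0.07). STMN1, whose product stathmin holds tubulin dimers, had 191 and 211. None of 10 common reference genes passed, with log2 fold changes from −0.32 to 0.13. Of the 747 tested splicing events of these lists none was called with the limit of 10 points, and 4 had an adjusted p under 0.05 without it (0.535%, beside 0.0889% of all events). They were events listed as pairs of mutually exclusive exons in TCP1 (−4.92 points), ARPC2 (−8.29), GAPDH (2.77) and RPLP0 (1.88), named here after their values were seen. Whether the exons of a pair exclude each other in these genes was not tested. The GAPDH pair had a mean of 57743 reads and a PSI of 43.5% in control and 46.2% in SAM68 libraries. The most read skipped-exon event of GAPDH had a mean of 58094 reads.

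Among 6207 genes with at least 100 reads, those whose log2 RPM followed the same pattern over the 6 libraries were listed by Pearson r, as a description without a test, since 6 libraries in 2 groups share their depth and treatment. For ACTG1 they were PSMB1 (0.989), MPI (0.987) and AC093512.2 (0.985). For TUBA1B they were YIF1A (0.994), PALM2-AKAP2 (0.984) and NUTF2 (0.982), and for ACTB they were HERPUD1 (0.992), SNAP29 (0.992) and RPL34 (0.986).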

How the data were processed

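Junction reads were measured in 6 RNA libraries of NCI-H1975 cells. Per the study's methods, the authors sequenced paired ends on an Illumina NovaSeq, filtered and trimmed reads with fastp (0.20.0 in the submitters' processing notes), aligned them to GRCh38 with HISAT2 (2.1.0) and counted junction reads per event with rMATS. How reads that fit several gene copies were handled is not given in the sources used here. The deposited tables give counts as lists of 3 per group. The first list is taken as control and the second as SAM68, since a splicing plot of the study draws them in that order. The deposited inclusion levels were used only to check the counts and to divide lists: of 275 lists of alternative 3′ splice sites whose digits had been merged, 163 were divided by the levels, 7 by the same junction in another table, and 105 were left out. The authors' own p-values, FDR and level differences were not used.

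The actin and tubulin genes and the gene lists were chosen with earlier results of these data known. PSI was tested with a quasi-binomial model per event on inclusion and skipping counts (R 4.3.3, limma 3.58.1), with dispersions moderated within each event type, not below 1, and a prior from events that averaged 5 or more reads of the rarer form. That prior was set after simulated data were tested. Adjustment (Benjamini-Hochberg) was within each event type over events that averaged 10 or more reads per library. Reads per gene were tested with limma (trend) on log2(RPM + 0.5) with the same minimum, adjusted over all genes. The count model planned for this step was not run, and limma was used in its place. Single values were compared by two-sided exact permutation tests over libraries. Coverage is the reads of each form divided by its effective length, per 100 bases. Intervals for PSI and levels cover the spread between libraries, not counting error alone. Exon numbers follow the MANE transcript in GENCODE 44 on GRCh38, from which sequences were read, and α-tubulin exon sequences are not reported here. Named events were the most read event and the one with the largest PSI difference of each gene, with other events summarised. From the lists, called genes were named. Other genes and events were named after their values were seen.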

Additional observations from a re-analysis of the deposited data

Results flagged for a closer look

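The lists of 2 alternative 3′ splice site events were left out of the 32 tested events, since the merged digits of a list allowed more than 1 division into counts, and were tested only on an assumed division. For ACTB the event is an acceptor inside exon 4, 48 bases downstream of the usual one, with 204 reads in SAM68 library 2. The reads of the shorter exon were 0, 0 and 0 in control and 0, 204 and 0 in SAM68 libraries, and these lists had a single division. The inclusion lists of the control group had 45 possible divisions. The 30 bases around both acceptors are given with the AG of each in capitals, on the minus strand at chr7:5528710-5528739 for the usual acceptor and chr7:5528662-5528691 for the inner one.
ACTB exon 4, usual acceptor: ggtgtatctctgccttacAGatcatgtttg
ACTB exon 4, inner acceptor: ccatgtacgttgctatccAGgctgtgctat
With counts of equal digit number assumed, the use of the usual acceptor was 96.1% in SAM68 library 2 and 100% in the other 5 libraries. The quasi-binomial model then gave an adjusted p of 0.0402 for a difference of −1.30 points, under the limit of 10 points, and the exact permutation test over libraries gave p = 1. In the other 5 libraries no read of the inner acceptor was listed, so the value rests on 1 library. Its cause was not tested.

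For ACTG1 the event is an acceptor inside exon 3, 27 bases downstream of the usual one. Its reads were 0, 0 and 10 in control and 17, 0 and 2 in SAM68 libraries, 10 and 19 in sum. The PSI difference on the same assumption was −0.01 points (exact permutation p = 0.7).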

How the results depend on the processing

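No event of these genes was called under any alternative that was run, including each library left out in turn (range 0 to 0). The number of genes called, 2, moved to 0 with all events of a gene summed and with a limit of 1 on the absolute log2 fold change. It moved to 1 without a minimum of reads, and to 1 with an adjusted p under 0.01. With 1 library left out it lay between 1 and 2. ACTG1 kept its call in all of these except the sum and the fold limit, and TUBA1B lost its call in all of them but 3 of the 6 left-out libraries. With all events summed the adjusted p of TUBA1B was 0.0573, at the same log2 fold change of 0.21. TMM and median-of-ratios scaling, the total of gene counts, a minimum of 50 reads and voom (added after seeing the data, as were the other settings of the dispersions and of undivided lists) left 2. Over all alternatives the adjusted p of ACTG1 ran from 9.81e-07 to 0.0766, that of TUBA1B from 0.00387 to 0.219 and that of ACTB from 0.0536 to 0.62. Of 77 PSI differences recomputed without effective length or with 1 library left out, none called, 4 changed sign and 3 went to 0. Events called over all genes ranged from 2, with unmoderated dispersions, to 1354, with pooled counts. DESeq2 and edgeR fits were planned and not run, and voom was fitted to the counts read from the lists instead. No paired analysis was possible because the lists carry no replicate numbers. With 3 libraries per group, exact tests cannot go below 0.1, and events with under 100 reads resolve PSI only to several points.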
